A study of Drosophila melanogaster with 4 samples.

Results

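Cluster-free stretches are intervals of at least 50 kb on chromosome arms X, 2L, 3L and 3R of Drosophila melanogaster in which no H3K9acS10P cluster was called. A cluster is an interval in which chromatin immunoprecipitation followed by sequencing (ChIP-seq) gave significant enrichment, as listed by the authors. Enriched clusters of 3 deposited lists were pooled, overlapping ones were merged into 7141 merged regions, and the gap between each pair of neighbours on an arm was measured. Of the 7137 gaps, 350 were 50 kb or longer, which is 4.90% of them. The stretches were selected on the cluster positions of the same lists, so their number, length and emptiness are given as a description and carry no test. The 3 shortest stretches were 50151, 50214 and 50275 bp long, and the 3 longest gaps that fell short were 49800, 49784 and 49603 bp long.

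The samples were nuclei of wild-type Oregon-R larvae at the third instar: 2 ChIP samples with an antibody to H3K9acS10P and 2 input samples without immunoprecipitation. Each ChIP sample has a list of its own, replicate 1 and replicate 2, and the third list, called combined here, belongs to the pair. Nothing in the labels ties the replicates to separate collections of larvae, so differences between them may be technical. Neither the sex of the larvae nor a tissue is labelled, and the lists average over larval cell types. Replicate 1 clusters covered 14.3% of the 4 arms and replicate 2 clusters 16.6%. The combined list covered 21.4%. Read totals were not analysed here and the depth is unknown. Absence of a cluster therefore says that no enrichment passed the authors' threshold, not that the mark was absent, and the arm sequence includes repeats and assembly gaps where reads may not be placed.

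H3K9acS10P is histone H3 with an acetyl group on lysine 9 and a phosphate on the neighbouring serine 10. In interphase nuclei of flies the serine is phosphorylated by the kinase JIL-1, which is found in the open interbands of polytene chromosomes and which limits the spread of heterochromatic marks. Acetylation of lysine 9 is a mark of the start regions of transcribed genes. In dividing cells the same serine is phosphorylated by Aurora B over condensed chromosomes. Fly euchromatin alternates between gene-dense, early-replicating sequence and longer domains of low transcription, some of which form the late-replicating dark bands of polytene chromosomes.

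Few gaps held much of the sequence. The 350 stretches summed to 34.9 Mb, or 35.6% of the 97.9 Mb of the 4 arms and 46.2% of all sequence in gaps. By contrast, the median gap over the 4 arms was 2.65 kb long. The 2078 gaps under 1 kb made up 29.1% of all gaps but 0.894% of the sequence. The median stretch was 84.8 kb long, with quartiles at 62.5 and 121 kb. Of the stretches, 222 were under 100 kb, 108 were from 100 kb to under 200 kb, and 20 reached 200 kb. Those 20 alone held 5.04 Mb, against 0.875 Mb in the 2078 gaps under 1 kb.

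**Figure D1:**
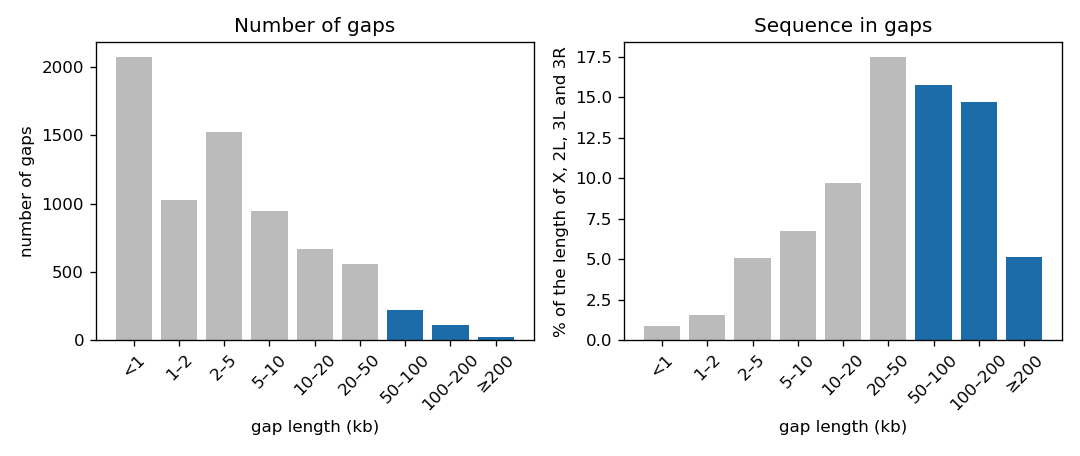
Gaps between consecutive merged regions on X, 2L, 3L and 3R by length in kb; the left panel gives the number of gaps and the right panel their share of the arm length in percent, with stretches of 50 kb or more in blue. Gaps under 1 kb are the commonest class (2078), while the 20 to 50 kb class (17.5%) and the 50 to 100 kb class (15.7%) hold the most sequence.

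All 4 arms carried stretches at a similar density but differed in the share they took. The X held 85 stretches, 3.79 per Mb, which took 39.2% of its length, and their median was 88.4 kb. Arms 2L, 3L and 3R together held 265 stretches, 3.51 per Mb and 34.6% of their length. Arm 2L gave 82 stretches and 37.6%, arm 3L 82 stretches and 30.3%, and arm 3R 101 stretches and 35.9%. Arm 3L had the shortest median at 76.5 kb. Gaps of 50 kb or more were also taken from each replicate list alone, where they occupied 51.3% ± 4.06 of the X and 46.2% ± 1.76 of the 3 autosomal arms (SD, n = 2). Within replicate 1 the shares were 54.1% on the X and 47.4% on the pooled autosomal arms. Within replicate 2 they were 48.4% on the X and 44.9% on the pooled arms, so the X was above the pool in both. This did not hold for each arm. Arm 2L had 50.6% in replicate 1, below the X, but 50.9% in replicate 2, above it. Arms 3L (45.5% and 41.2%) and 3R (46.4% and 43.2%) were below the X in replicates 1 and 2. An exact permutation of signs over 2 replicates cannot give a two-sided p below 0.5, and the difference between the X and the pooled arms is given as a value.

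Stretches were unevenly spread along the arms. In complete 1 Mb bins the share of sequence inside stretches had a median of 35.0% over 96 bins and reached 50% in 20 of them. The highest share was 80.8%, on 2L from 17000001 to 18000000, where replicate 1 clusters covered 3.26% and replicate 2 clusters 3.28%. Next came X from 14000001 to 15000000 at 69.7% and 3R from 2000001 to 3000000 at 66.5%. The only bin with no stretch was the first of 3L, from 1 to 1000000, in which clusters covered 24.0% in replicate 1 and 26.2% in replicate 2. It does begin with 62.0 kb free of clusters, which the rule does not count because they lie at a chromosome end. The next lowest shares were also on 3L, 2.93% from 1000001 to 2000000 and 3.30% from 21000001 to 22000000. The X bin from 1000001 to 2000000 came after them with 5.59% in stretches, and with 23.7% covered in replicate 1 and 37.8% in replicate 2.

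The telomeric ends held less than the interior of their arm, and the centromeric ends differed between arms. In the 1 Mb next to the centromere, stretches took 60.9% of the X, 41.4% of 2L, 25.8% of 3L and 13.2% of 3R. Between the 2 terminal megabases the shares were 38.3% on the X, 38.3% on 2L, 31.8% on 3L and 36.9% on 3R. The centromere-proximal megabase was thus above the interior of its arm on the X and 2L, and below it on 3L and 3R. At the telomeric ends the shares were 34.8% on the X, 19.5% on 2L, 0% on 3L and 31.9% on 3R, each below the interior of the same arm. The 0% on 3L leaves out the 62.0 kb before the first merged region of that arm, since the rule does not count gaps at chromosome ends. Those 62.0 kb would not bring the share of this 1 Mb to the 31.8% of the interior. The next 1 Mb bin of 3L had 2.93% in stretches. How much of the proximal sequence could receive reads was not tested.

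The 3 longest stretches of 2L were the longest, the second longest and the fourth longest of all. The longest ran from 15771099 to 16249329, 478 kb. Replicate 1 alone left 481.0 kb without a cluster at this place, replicate 2 left 481.3 kb and the combined list 478 kb. The difference between the replicates was under 1 kb. The right edge was a region of 2867 bp present in all 3 lists, and the left edge was one of 1001 bp in the combined list alone. The second, from 16911245 to 17264381, was 353 kb long. Both replicates left a longer gap there, 471 kb in replicate 1 and 469 kb in replicate 2. A single region of 1077 bp, listed in the combined list alone with a score of 0.44, cut it short, and the next stretch of 108 kb followed it. The third of the arm, from 14689764 to 14976360, measured 287 kb, and 315 kb in replicate 1 against 287 kb in replicate 2.

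On 3R the 3 longest stretches spanned 23814629 to 24148002 (333 kb), 23118837 to 23378275 (259 kb) and 18617256 to 18870412 (253 kb). The first was bordered by regions of all 3 lists on both sides, and its length was 336 kb in replicate 1 and 334 kb in replicate 2. The other two had lengths of 264 and 262 kb in replicate 1, and of 260 and 253 kb in replicate 2. In all 3 the replicate lists gave lengths within 10 kb of the merged one.

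On 3L the longest stretch, from 13508015 to 13764973, was 257 kb long in the merged set, but 404 kb in each replicate list. It was again a region of the combined list alone, 1039 bp wide with a score of 0.40, that ended it. The next, from 9967215 to 10215453, measured 248 kb, 249 kb in each replicate list, between regions of all 3 lists. The third, from 15256025 to 15491401, was 235 kb long, with 238 kb in replicate 1 and 258 kb in replicate 2.

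The longest stretch of the X was the twelfth longest of all, shorter than the 3 longest of each autosomal arm. It ran from 4981460 to 5201376, 219.9 kb, and was 220.3 kb long in replicate 1 and 222 kb in replicate 2. The second ran from 19799493 to 20015835, 216 kb, with 269 kb in replicate 1 and 218 kb in replicate 2. The third, from 14161103 to 14368523, measured 207 kb, against 313 kb in replicate 1 and 208 kb in replicate 2. Its right edge was a region of 1553 bp that replicate 2 alone listed, with a score of 0.75. The tenth longest stretch overall lay on 2L from 21346281 to 21572494, 226.2 kb, at 1439 kb from the centromeric end of the arm. It was the same length in replicate 1 and 226.5 kb in replicate 2.

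Across all 350 stretches the gap in the combined list was nearly that of the merged set, exceeding it by a median of 0.0235 kb. The gap around the stretch in replicate 1 exceeded it by a median of 6.22 kb and in replicate 2 by 1.25 kb. The excess was at most 5 kb for 166 stretches (47.4%) in replicate 1 and 208 (59.4%) in replicate 2. For the combined list this held for 322 (92%). An excess over 50 kb was found at 73 stretches for replicate 1, at 51 for replicate 2 and at 8 for the combined list. Between the replicates, the 2 lengths lay within 5 kb of each other for 203 stretches (58%). Of the rest, 93 were longer in replicate 1 and 54 in replicate 2. The lengths had a Spearman rho of 0.79 between the replicates over 350 stretches. Neighbouring stretches can share one replicate gap, and both lengths have the merged stretch as their floor, so this describes the lists and has no p.

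**Figure D2:**
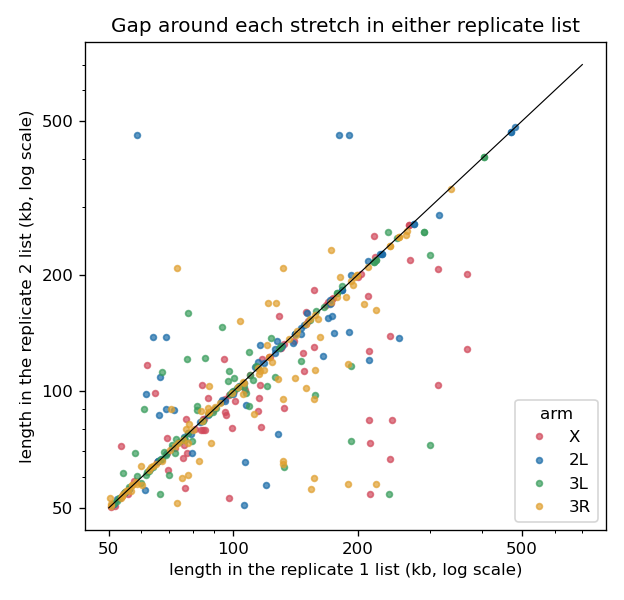
Length of the cluster-free gap around each of the 350 stretches in the replicate 1 list (horizontal, kb, log scale) and the replicate 2 list (vertical, kb, log scale), coloured by arm, with the line of equal length. Most points lie on the line (203 within 5 kb), and points off it mark gaps that 1 replicate splits, such as 3 stretches of 2L inside 1 gap of 461 kb in replicate 2.

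All 3 lists chose the 350 stretches, so no list is left in which to read their emptiness. Gaps taken from 1 replicate list can be read in the other replicate. They are a different set, which takes 48.9% of the 4 arms for replicate 1 and 45.7% for replicate 2, against 35.6% in stretches. Replicate 1 alone gave 443 gaps of 50 kb or more, and replicate 2 clusters covered 1.61% of their sequence, against 16.6% of the 4 arms as a whole and 31.0% outside these gaps. Replicate 2 alone gave 430 such gaps, of which replicate 1 clusters covered 0.914%, against 14.3% of the arms and 25.6% outside. No whole replicate 2 cluster lay in 248 of the 443 gaps (56.0%, 95% Wilson interval 51.3 to 60.5), and no whole replicate 1 cluster in 315 of the 430 (73.3%, interval 68.9 to 77.2). Intervals here and below cover counting error only. Gaps of 10 kb to under 50 kb were covered at 6.95% by replicate 2 and at 3.23% by replicate 1. Being shorter, they lacked a whole cluster of the other replicate about as often, in 58.6% of replicate 1 gaps and 77.9% of replicate 2 gaps.

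Clusters of one replicate inside a gap of the other were narrow and low in score. The 363 replicate 2 clusters inside replicate 1 gaps had a median width of 1622 bp, against 2378 bp over all its clusters on the arms, and a median score of 0.54, against 0.66. The score is the authors' own value per cluster, with no stated formula, and is compared within a list only. In the opposite direction, 178 replicate 1 clusters had a median width of 1659 bp against 2501 bp, and a median score of 0.49 against 0.74. The same held in gaps of 10 kb to under 50 kb, where replicate 2 clusters had a median of 1645 bp and 0.52 and replicate 1 clusters 1646 bp and 0.48, so it was not particular to the long gaps. Few gaps held several of them. More than 2 whole clusters of the other replicate lay in 39 of the 443 gaps and in 13 of the 430. The share covered was lower in longer gaps, at 2.37% in replicate 1 gaps under 100 kb, 1.19% from 100 kb to under 200 kb and 1.06% at 200 kb and over. For replicate 2 gaps the same classes gave 1.42%, 0.598% and 0.456%. These shares include clusters that cross a gap edge, which weigh more in shorter gaps. Whole clusters alone gave 1.95%, 1.02% and 0.915% in replicate 1 gaps, and 1.06%, 0.488% and 0.382% in replicate 2 gaps. No whole cluster lay in 33.3% of replicate 1 gaps of 200 kb and over, against 61.4% under 100 kb. For replicate 2 gaps these were 74.2% and 73.9%.

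Consecutive stretches on an arm were separated by a median of 110 kb, with quartiles at 39.1 and 232 kb over 346 pairs. Of these pairs, 47 were at most 10 kb apart, 107 (30.9%) at most 50 kb apart and 22 more than 500 kb apart. Arm ends are not counted here, and 1971 kb without a stretch preceded the first stretch of 3L. The longest interval between consecutive stretches lay on 3L from 20904910 to 21966968, 1062 kb with 111 merged regions. Clusters covered 18.7% of it in replicate 1 and 20.3% in replicate 2. The 14.3% and 16.6% of the 4 arms include the stretches, which are empty by the rule. A higher value in an interval chosen for having no stretch is therefore no result. All sequence more than 200 kb from a stretch had 22.9% in replicate 1 and 27.4% in replicate 2, both above this interval.

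Stretches lay next to each other more often than their share of gaps. The gap after a stretch was itself a stretch in 41 of 349 cases, or 11.7% (95% Wilson interval 8.78 to 15.5), against 4.90% of all gaps. At the second gap onward the share was 7.47%, at the third 6.03%, at the fifth 6.90% and at the tenth 4.65%. Further on it was 6.12% at gap 20 and 6.67% at gap 50, so it did not fall steadily. In the replicate lists taken alone the next gap was 50 kb or longer in 15.4% ± 1.93 of cases, against 8.77% ± 1.04 of all gaps (SD, n = 2). Consecutive gaps of any length had a Spearman rho of 0.14 over 7133 pairs, a weak relation among neighbours that share a merged region. It was 0.07 at the second gap and 0.0045 at the fifth.

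Stretches were grouped into sparse domains where at most 50 kb of cluster-holding sequence separated them. Of the 350, 180 (51.4%) fell into 73 domains of 2 or more stretches and 170 stood alone. There were 48 domains of 2 stretches, 17 of 3 and 8 of 4 or more, with a maximum of 5. Domains had a median length of 248 kb, of which a median of 90.8% lay inside stretches, and together they spanned 20.2 Mb, or 20.7% of the 4 arms. Arm 3R had the most, 25 domains with 59.4% of its stretches, and 2L the fewest, 14 domains with 42.7%. The X and 3L had 17 domains each. A length of 500 kb was reached by 7 domains, 3 on the X, 2 on 2L and 1 each on 3L and 3R.

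The longest domain lay on 2L from 15503275 to 16249329. It was 746 kb long and joined 3 stretches of 127, 98.4 and 478 kb. Clusters covered 2.23% of it in replicate 1 and 2.31% in replicate 2. A combined-only region of 1207 bp lay between the first and the second stretch. The second domain was 618 kb, on the same arm from 17501875 to 18119829, with 4 stretches. Here the replicates differed, with 1.28% covered in replicate 1 and 0.347% in replicate 2. Replicate 2 listed no cluster over 461 kb of it, from 17501866 to 17962557, where replicate 1 listed 3.

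The third domain held 5 stretches, more than any other. It lay on 3L from 4549935 to 5126489, 577 kb, where replicate 1 clusters took up 1.57% and replicate 2 clusters 1.81%. The stretches were 73.0, 63.7, 129, 71.4 and 225 kb long. The sequence between neighbours was 2.57 to 5.57 kb long and held 5 islands, the merged regions that lie between stretches, of which 3 were present in all 3 lists. The fourth domain was on 3R from 23814629 to 24356344, 542 kb, with 2 stretches. The fifth was on the X from 4981460 to 5510881, 529 kb, with 4 stretches. It was the most covered of the 5, at 5.24% by replicate 1 and 6.79% by replicate 2, and 8 of its 9 islands were present in all 3 lists.

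**Figure D3:**
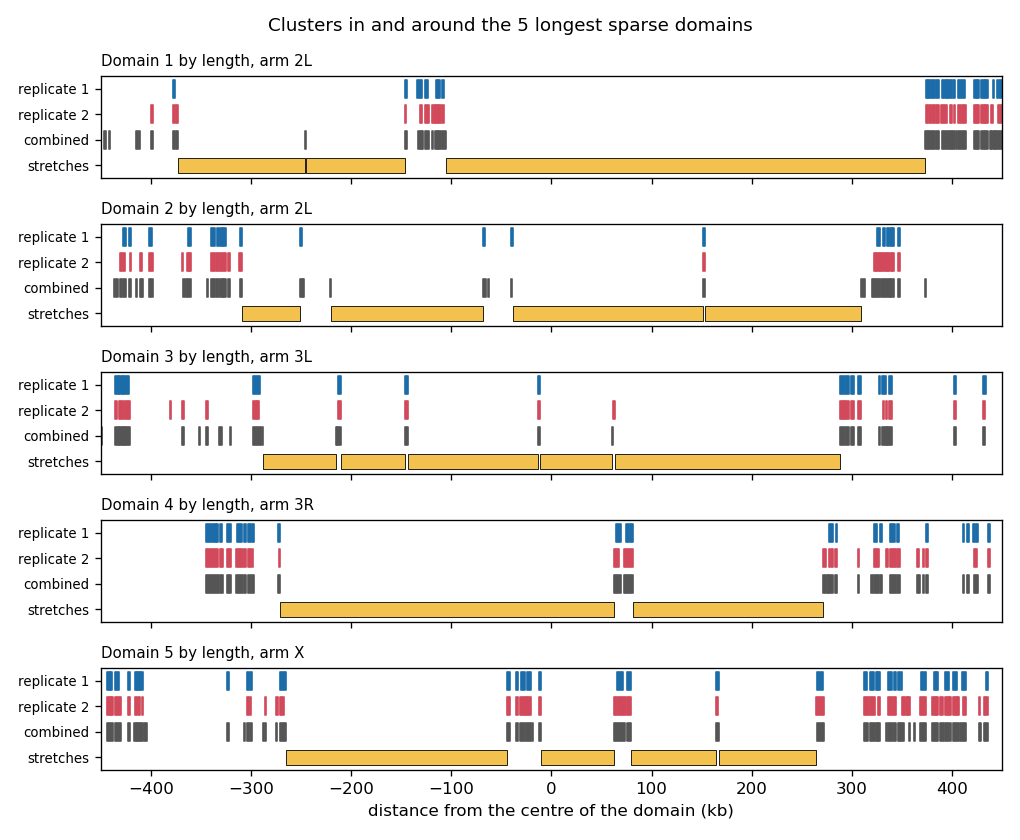
Clusters of replicate 1 (blue), replicate 2 (red) and the combined list (grey) in and around the 5 longest sparse domains, with stretches in yellow; the horizontal axis is the distance in kb from the domain's centre. Islands between stretches differ in support: most of domain 5 recurs in all lists, while in domain 1 a combined-only region splits the left part.

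The 73 domains contained 314 islands. Of these, 170 (54.1%, 95% Wilson interval 48.6 to 59.6) held clusters of all 3 lists, against 50.5% of all merged regions on the arms, a background that lies within the interval of the islands. Their median width was 2254 bp, against 2311 bp over all merged regions. The widest island was also the widest region at the edge of any stretch. It lay on the X from 6861136 to 6897382, 36.2 kb, and was assembled from 4 clusters of replicate 1, 7 of replicate 2 and 2 of the combined list. A stretch of 87.1 kb lay on its left. Another island of 10.7 kb followed 1.21 kb after it, and beyond that lay a stretch of 52.1 kb. The next widest islands were 14.9 and 12.2 kb wide, both on the X, and the fifth, 9.69 kb, was on 3R beside a stretch of 189 kb. All 5 were present in all 3 lists.

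The 350 stretches were bordered by 659 merged regions, 618 with a stretch on 1 side and 41 with stretches on both sides. Bordering regions had a median width of 2243 bp, with quartiles that overlapped those of the other 6482 regions, whose median was 2317 bp. In the replicate lists taken alone, bordering clusters had a median width of 2297 bp ± 89.8 and the others 2471 bp ± 96.2 (SD, n = 2). Within each list the bordering clusters were narrower, at 2361 against 2539 bp in replicate 1 and 2234 against 2403 bp in replicate 2. Widths of 8 kb or more were found in 20 bordering regions (3.03%), against 4.71% of the other regions. On the X this share was 2.45% of bordering regions, against 7.49% of the others. The shares on 2L were 2.58% of bordering regions and 3.66% of the others, and on 3L 1.96% of bordering regions and 3.72% of the others. On 3R the order was the opposite, with 4.79% of bordering regions and 4.25% of the others. The bordering shares by arm rest on few regions, 4 on the X, 4 on 2L, 3 on 3L and 9 on 3R. Regions under 2 kb made up 40.7% of bordering regions and 39.9% of the others. Merged regions whose larger neighbouring gap was 10 to under 20 kb had a median width of 2158 bp, and 3.01% reached 8 kb. Where that gap was 20 to under 50 kb, the values were 2146 bp and 3.33%. Narrow width and few wide regions were thus not particular to the edges of stretches.

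After the X region, the widest regions at the edge of a stretch were all on 3R. They were 17.2 kb (from 14805177 to 14822386), 13.95 kb (from 16364994 to 16378946), 12.9 kb (from 7059353 to 7072255) and 12.75 kb (from 23740809 to 23753558). Each held clusters of all 3 lists, and the second of them ended a stretch of 209 kb.

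Support was uneven. All 3 lists gave clusters in 368 of the 659 bordering regions (55.8%, 95% Wilson interval 52.0 to 59.6), against 49.98% of the other regions (interval 48.8 to 51.2) and 50.5% of all merged regions. Clusters of all 3 lists are not independent, since the combined list belongs to the same 2 samples. A single list gave 178 of the bordering regions (27.0%), against 28.4% of the others. Of these 178, the combined list gave 146, replicate 2 31 and replicate 1 1. They had a median width of 1296 bp. The replicate lists contain no cluster under 1301 bp, while the combined list goes down to 1001 bp, and 93 of the 178 were narrower than any replicate cluster. Counted by stretch, 109 (31.1%) had regions of all 3 lists at both edges, 171 (48.9%) at 1 edge and 70 (20%) at neither. The same count was not made over all gaps, so this split describes the stretches and is not shown to be particular to them.

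Width and support went together, in bordering regions as in the rest. Under 2 kb, 5.97% of bordering regions and 3.87% of the others were in all 3 lists. From 2 kb to under 4 kb the share was 86.0% of 258 bordering regions (interval 81.3 to 89.7), against 72.2% of 2464 others (interval 70.4 to 73.9). From 4 kb to under 8 kb it was 97.3% of bordering regions and 93.5% of the others. All 20 bordering and all 305 other regions of 8 kb or more were in all 3 lists. The higher share in bordering regions was therefore largest at 2 to 4 kb, and it was not tested over samples.

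**Figure D4:**
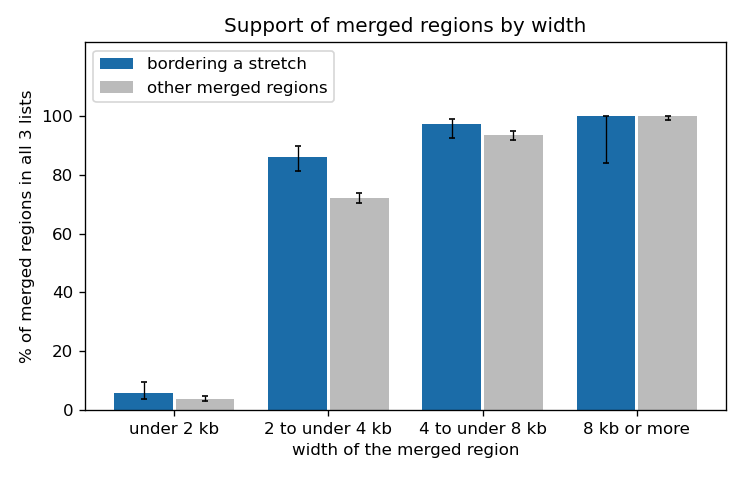
Percentage of merged regions that hold clusters of all 3 lists, by width, for regions that border a stretch (blue) and other merged regions (grey); bars give the share and lines its 95% Wilson interval. The 2 to 4 kb class differs most, at 86.0% in bordering regions and 72.2% in the others.

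What lay on the far side of a bordering region went with its width and support. The 345 regions with a stretch on 1 side and a gap under 5 kb on the other had a median width of 2547 bp, and 63.5% were in all 3 lists. The 273 with a gap of 5 kb to under 50 kb on the other side had a median width of 1999 bp and 46.9% in all 3 lists. The 41 regions with stretches on both sides had a median width of 2007 bp. Of these, 21 (51.2%) were in all 3 lists and 15 (36.6%) in only 1, and none was 8 kb wide. Over all merged regions the median width was 2311 bp, with 50.5% in all 3 lists and 28.3% in only 1. The 51.2% is near that share. Merged regions whose larger neighbouring gap was under 5 kb had a median of 2451 bp, against 2146 bp at 20 to under 50 kb. Greater width beside shorter gaps was thus not particular to bordering regions.

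Scores at the edges of the merged stretches were slightly above those elsewhere. Taking the highest score in each merged region, bordering regions had a median of 0.82 in replicate 1, against 0.76 in other regions. By replicate 2 scores the bordering regions had a median of 0.74 and the others 0.68, and by combined scores the bordering regions had 0.49 and the others 0.42. When stretches were taken from each replicate's list alone, the median cluster score was 0.71 at the edges against 0.75 elsewhere in replicate 1, and 0.66 against 0.65 in replicate 2, so the order was not the same in both. Some of the highest combined scores at an edge belonged to the narrowest regions. The highest, 3.17, was a region of 1007 bp on 2L from 22285338 to 22286344, listed in the combined list alone. Regions of 1001 bp on the X from 3887532 (score 2.55) and on 3R from 3533320 (score 2.27) were also in the combined list alone. An X region of 1883 bp from 21758892 scored 2.37 in the combined list and 2.71 in replicate 2. Of the 5, the 3R region from 25143218 to 25146224 was the only one in all 3 lists, scoring 1.95 and 2.27 in replicates 1 and 2, and 2.05 in the combined list.

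In the 3 lists, which chose the stretches, sequence 10 to 100 kb from a stretch was covered somewhat less than sequence more than 200 kb away. Sequence that far away lies in long intervals without a stretch, so the rule itself bears on this difference. It was not seen in both directions when the replicate left out was measured. Sequence outside stretches was sorted by its distance to the nearest one. Within 10 kb, 34.9% ± 2.60 was covered by clusters (SD, n = 2), a value raised by the rule, since every edge is a cluster. From 10 to 25 kb the mean was 22.0% ± 2.40, from 25 to 50 kb 22.0% ± 2.51 and from 50 to 100 kb 21.4% ± 2.16. From 100 to 200 kb it was 23.8% ± 2.56, and beyond 200 kb 25.1% ± 3.16. The SDs reflect mostly that replicate 2 covered more than replicate 1 at every distance. Within replicate 1, the 3 classes from 10 to 100 kb had 19.9% to 20.3%, against 22.9% past 200 kb. Within replicate 2 they had 23.0% to 23.7%, against 27.4%, and in the combined list 29.7% to 31.0%, against 35.0%. The difference was not tested. Where one replicate chose the gaps and the other was measured, coverage from 10 to 25 kb was 28.5% by replicate 2 around replicate 1 gaps, and 27.5% beyond 200 kb. By replicate 1 around replicate 2 gaps it was 22.7% and 25.5%, so the order differed between the replicates. Median cluster width stayed between 2334 and 2525 bp over the distance classes, as a mean of the replicates.

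**Figure D5:**
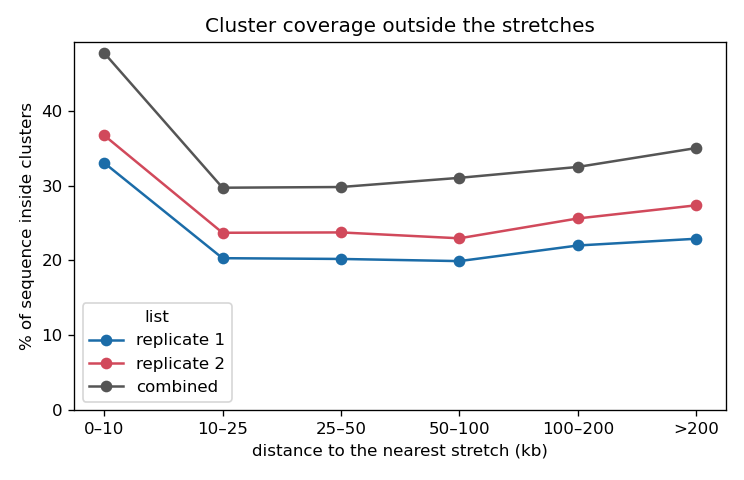
Percentage of sequence inside clusters (vertical) by distance in kb to the nearest stretch (horizontal), for sequence outside stretches in the replicate 1 (blue), replicate 2 (red) and combined (grey) lists. After the first class, which holds the bordering clusters themselves, replicate 1 lies between 19.9% and 22.9% and replicate 2 between 23.0% and 27.4%.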

How the data were processed

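Per the submitters' processing notes, reads were aligned with Bowtie 0.12.7. The deposited cluster lists give a start, an end and a score for each enriched region on FlyBase release 5, per the file headers. The cluster caller, its threshold, the score's formula and the way replicates were combined are steps that none of the sources used here describes. Input samples have no list here, so no background level stands beside the values.

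Rows typed as enriched on X, 2L, 3L and 3R were pooled over 3 lists and merged where they overlapped by at least 1 bp. Gaps of at least 50000 bp between consecutive merged regions were kept, without those at chromosome ends. Other arms were not analysed here. The merged regions were identical to those of bedtools 2.31.1 (7141 of 7141). Gap finding was tested on simulated data. Python 3.11.15 with numpy 2.4.6, pandas 2.3.3, scipy 1.17.1 and matplotlib 3.10.9 was used. Shares carry 95% Wilson intervals, and values per replicate are given as mean and SD over 2 samples. No test was run, since the lists chose the members. Stretches, domains, borders and islands were named by rank in length, width or score. The stretches, lists and rules were chosen with earlier results of these data known. No sequence is shown, because no genome of release 5 was used here.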

Additional observations from a re-analysis of the deposited data

How the results depend on the processing

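Of 42 values under alternatives over 8 results, 32 stayed within the limits set (1.5 times for counts, 1 SD between replicates or the 95% interval for other values). The number of stretches ran from 274 with a minimum of 60 kb to 478 when clusters under the median score of their list were ignored, against 350. The share of arm length inside stretches, 35.6% with all lists, was 45.7% to 48.9% with one replicate and the combined list, which contains it, left out, 42.0% with the replicate lists only, 43.7% when a cluster had to overlap another list, 54.0% for clusters at or above the median score, 54.1% when a merged region had to hold all 3 lists, 40.2% at a minimum of 40 kb and 31.4% at 60 kb. Each of these settings either removes clusters that break a gap or changes the minimum, which by construction moves the share. The number of domains, 73, was 120 for clusters at or above the median score and 116 for regions of all 3 lists. Width, support and score of bordering regions and coverage by the other replicate stayed within their limits in every alternative run. When clusters of 1 list were ignored, which can only lengthen or join stretches, the second longest of 2L measured 469 kb and the longest of 3L 404 kb. No paired analysis was possible because no result comes from a test and the inputs have no list here; values within each ChIP replicate stand side by side instead. Depth is unknown, so a cluster missing from 1 list may lie just under its threshold.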

Other observations

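Rows typed as depleted, which no result above used, were listed once in the combined list and once in replicate 2, at the same place on 3L. The combined row ran from 12734162 to 12735984 (1823 bp, score -0.11) and the replicate 2 row from 12734458 to 12735958 (1501 bp, score -0.0055). Neither lay in a cluster-free stretch. The nearest stretch was 49.3 kb from the combined row and 49.6 kb from the replicate 2 row, and each row overlapped 1 merged region of enriched clusters.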
